A study of Mus musculus with 8 samples.

Results

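The 10 genes described here encode proteins of basement membranes: the collagen IV chains Col4a1 and Col4a2, the laminin chains Lama4, Lama5, Lamb1, Lamb2 and Lamc1, the nidogens Nid1 and Nid2, and perlecan, Hspg2. They were taken by gene name from a table of 22053 protein-coding gene rows, and each name had 1 row. RNA was sequenced in bulk from skeletal cells sorted out of wild-type mice on postnatal day 10. The spine gave 4 libraries of candidate vertebral skeletal stem cells, called vSSC, and femur and tibia gave 4 of long bone skeletal stem cells, called lbSSC, with 2 male libraries (replicates 1 and 2) and 2 female libraries (replicates 3 and 4) at each site. Cells of both sites were sorted with one gate, CD31-TER119-CD45-Thy-6C3-CD200+CD105-. The labels call the samples biological replicates without saying how many animals each holds, so the p-values rest on the spread among these samples only.

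Basement membranes are thin sheets of matrix on which epithelial and endothelial cells rest and which wrap muscle, fat and Schwann cells. Laminins, trimers of 1 alpha, 1 beta and 1 gamma chain, assemble at the cell surface, collagen IV forms a second network, and nidogens and the heparan sulfate proteoglycan perlecan bind both. Cartilage has no continuous basement membrane, but the pericellular matrix around chondrocytes holds perlecan, nidogens, laminins and collagen IV.

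Col4a1 and Col4a2 lie head to head on chromosome 8, and their products form trimers, the collagen IV molecules considered here. The annotated start sites, at 11312805 for Col4a2 and 11312826 for Col4a1, lie so that the 5′ ends of the transcripts overlap by 22 bases. The promoter windows of this pair are shown because the pair shares its regulatory DNA, and that of Nid1 because its transcript fell in vSSC. Those of Lamb1 and Lamb2 are shown because Lamb2 exceeded Lamb1 at least 15.7-fold in FPKM in every library. Windows run from 250 bases before to 50 bases after the RefSeq start site and were taken from a table of RefSeq promoters on GRCm38.p6, in which 7 of the 10 genes were matched; those of Lama4, Lamc1 and Nid2 were not used here. They are given 5′ to 3′ on the strand of the gene at chr8:11312777-11313076 (minus), chr8:11312555-11312854 (plus), chr13:13437352-13437651 (plus), chr12:31265043-31265342 (plus) and chr9:108479612-108479911 (plus). Capitals mark GGGCGG (GC box), CCAAT and TATAAA on either strand.
Col4a1: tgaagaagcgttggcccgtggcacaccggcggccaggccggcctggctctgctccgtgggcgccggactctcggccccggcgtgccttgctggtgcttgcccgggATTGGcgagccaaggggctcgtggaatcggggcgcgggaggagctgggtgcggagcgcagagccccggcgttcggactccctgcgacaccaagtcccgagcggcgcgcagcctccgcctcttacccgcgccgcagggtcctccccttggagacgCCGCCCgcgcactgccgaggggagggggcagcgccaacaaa
Col4a2: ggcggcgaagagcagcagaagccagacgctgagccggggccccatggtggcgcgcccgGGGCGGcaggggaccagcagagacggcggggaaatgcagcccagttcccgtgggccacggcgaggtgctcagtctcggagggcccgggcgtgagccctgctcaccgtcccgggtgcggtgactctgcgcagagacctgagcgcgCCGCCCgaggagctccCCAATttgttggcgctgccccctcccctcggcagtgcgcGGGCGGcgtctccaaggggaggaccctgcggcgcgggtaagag
Nid1: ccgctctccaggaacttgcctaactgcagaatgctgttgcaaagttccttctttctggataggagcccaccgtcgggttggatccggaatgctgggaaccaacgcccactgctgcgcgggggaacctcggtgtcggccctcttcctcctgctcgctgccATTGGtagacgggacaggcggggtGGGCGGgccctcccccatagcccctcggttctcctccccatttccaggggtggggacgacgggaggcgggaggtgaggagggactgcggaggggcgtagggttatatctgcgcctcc
Lamb1: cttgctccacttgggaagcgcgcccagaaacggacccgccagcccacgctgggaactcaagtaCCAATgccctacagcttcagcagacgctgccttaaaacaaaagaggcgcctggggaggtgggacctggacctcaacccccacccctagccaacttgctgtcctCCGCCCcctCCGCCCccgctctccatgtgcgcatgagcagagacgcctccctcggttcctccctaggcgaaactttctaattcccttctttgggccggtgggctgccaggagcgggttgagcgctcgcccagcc
Lamb2: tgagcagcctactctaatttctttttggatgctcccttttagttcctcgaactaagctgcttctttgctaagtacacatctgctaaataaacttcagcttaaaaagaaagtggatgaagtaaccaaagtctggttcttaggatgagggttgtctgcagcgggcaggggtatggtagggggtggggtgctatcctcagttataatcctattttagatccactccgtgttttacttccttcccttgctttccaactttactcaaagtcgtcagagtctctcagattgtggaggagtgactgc

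The windows of Col4a1 and Col4a2 share 78 bases. GGGCGG stood in the windows of 6 of these 7 genes, and 35.7% of 32851 promoter windows hold it. The Lamb2 window was the exception, with none of the 3 motifs, a GC content of 44% and 4 CG pairs. The Lamb1 window had a GC content of 63.7% and 18 CG pairs, and the windows of Col4a1 and Col4a2 had 74% and 73.7% GC, where the median of all windows was 52.7%. CCAAT was in the windows of Col4a1, Col4a2, Lamb1 and Nid1 and in 37.4% of all windows, and TATAAA was in none of the 7 and in 13.6% of all windows. These matches describe the letters of the windows only.

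Values are FPKM, fragments normalized by the authors for transcript length and for the mapped total of the library, which allow levels of different genes to be compared within a library. Differences between sites subtract lbSSC from vSSC after log2(FPKM + 1) and are given ± SE, on a scale that understates the change of low genes. They come from limma fitted over the 10729 genes that reached 1 FPKM in 4 or more of the 8 libraries, with Benjamini-Hochberg adjustment over all of them and a threshold of 0.05. Of the members 9, all but Lama5, passed that filter. Without read totals the depth, and with it the counting error of a single value, is unknown.

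Before the results, some properties of the libraries bear on all of them. Summed FPKM per library ranged from 460302 to 571869. Transcripts of at least 7000 nucleotides (802 genes) had a median deviation from the gene mean between -0.23 and 0.05 log2 units in vSSC and between -0.02 and 0.17 in lbSSC. Replicates 1 and 3 of vSSC were the lowest in this measure. The share of FPKM in 75 cytosolic ribosomal protein genes was 18.0% to 21.1% in vSSC, highest in these same libraries, and 15.4% to 18.1% in lbSSC. The members have long transcripts, from 4876 nucleotides (Nid2, longer than 78.9% of tested genes) to 14187 (Hspg2, longer than 99.7%).

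Markers of the sort and of other cell types were measured as well. Cd200 lay between 84.2 and 142.7 FPKM in the 8 libraries, and Pecam1 (CD31), Ptprc (CD45) and Thy1 stayed under 1 FPKM in all of them. Enpep (6C3) was at most 0.484 FPKM in vSSC and at 0.709, 1.30, 1.76 and 1.12 in lbSSC replicates 1 to 4, every one above the vSSC libraries. Eng (CD105) was at 0.262 to 0.839 FPKM in vSSC and 0.805 to 1.17 in lbSSC. Neither gene passed the filter on low values described above, so neither has a site test. The cartilage genes Col2a1, Acan, Sox9, Hapln1, Comp and Matn3 were all tested, and their sum lay between 13460 and 21790 FPKM in vSSC and between 14610 and 24280 in lbSSC, with Matn3 and Hapln1 higher in vSSC. The 6 osteoblast markers summed to 1138 to 1256 FPKM in vSSC and 3996 to 5856 in lbSSC, with Col1a1 and Bglap lower and Sp7 higher in vSSC. Endothelial cells make much basement membrane. Of 14 endothelial markers 2, Erg and Egfl7, passed the filter, Ptprb was listed at 0 throughout, and the defining genes Cdh5, Kdr, Tek and Tie1 stayed under 0.1 FPKM. The summed endothelial markers ranged from 14.5 to 18.1 FPKM in vSSC and from 11.1 to 15.1 in lbSSC, with Egfl7 higher in vSSC (1.07 ± 0.19, limma adjusted p = 0.00281). Of 11 pericyte and smooth muscle markers 4 passed the filter, with sums of 44.9 to 90.5 FPKM in vSSC and 64.2 to 99.0 in lbSSC, and none of the 11 was at 0 in all libraries. Most of that sum was Cspg4, at 33.1 to 73.9 FPKM in vSSC and 45.6 to 80.6 in lbSSC, and Myh11, the smooth muscle myosin, was under 0.01 FPKM in every library. Pdgfrb was the member of this list that was lower in vSSC (-0.62 ± 0.13, limma adjusted p = 0.00716). The 5 adipocyte markers summed to at most 1.68 FPKM in vSSC and 2.44 to 6.47 in lbSSC, with Adipoq lower in vSSC. The 5 skeletal muscle markers (4 found) summed to 3.17 to 12.1 and 1.95 to 2.81, with none called. The 10 blood markers summed to 3999 to 5566 and 4233 to 8766, with 4 higher and 1 lower in vSSC. Most of the blood sum was the hemoglobin genes Hbb-bs (means of 2773 in vSSC and 4032 in lbSSC) and Hba-a1 (1283 and 1668), and neither passed. The 4 higher in vSSC were S100a8 (155.2 and 30.9 FPKM), S100a9 (115.9 and 27.2), Lyz2 (16.0 and 5.33) and Cd52 (5.16 and 1.33). Alas2 was the 1 lower in vSSC (54.8 and 94.7). Listed at 0 in every library were Cidec and Lep of the adipocyte and Myod1 of the muscle markers. The part of these cell types in the differences below was not tested. In bulk samples fewer cells of a type and less RNA per cell cannot be told apart.

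**Figure D1:**
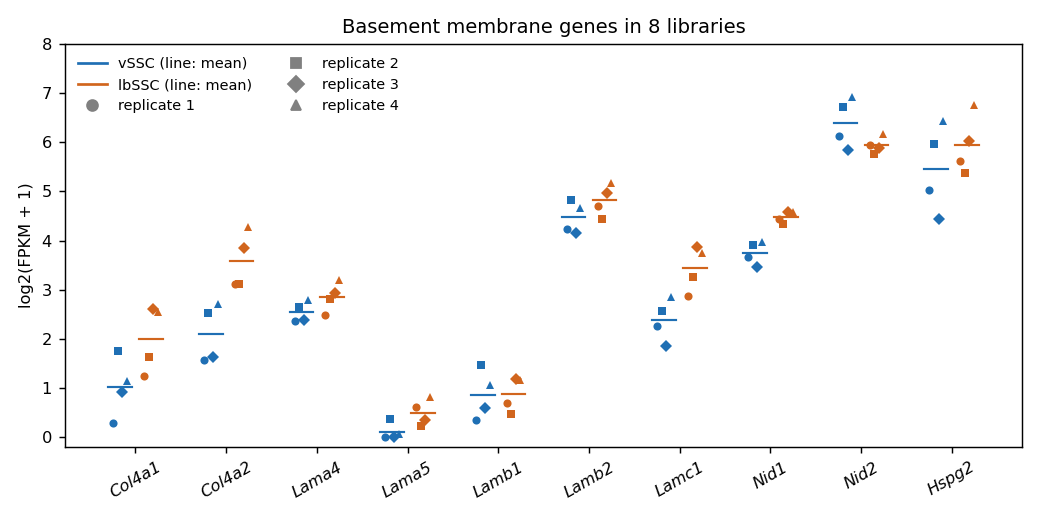
Expression of the 10 basement membrane genes on the log2(FPKM + 1) scale, with 1 marker per library, shaped by replicate, and a line at the group mean of 4 vSSC (blue) or 4 lbSSC (orange) libraries. Col4a2, Lamc1 and Nid1 show no overlap between the sites, and Lama5 lies under 1 FPKM in every library.

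The 10 transcripts spanned a wide range of levels, with nidogen 2 and perlecan at the top and Lama5 at the bottom. In vSSC the order of mean FPKM was Nid2 (87.2), Hspg2 (49.7), Lamb2 (21.6), Nid1 (12.6), Lama4 (4.89), Lamc1 (4.38), Col4a2 (3.58), Col4a1 (1.17), Lamb1 (0.902) and Lama5 (0.0839). The ranges of neighbours in this order overlapped except between Lamb2 and Nid1 and between Nid1 and Lama4. In lbSSC it was Hspg2 (64.9), Nid2 (60.7), Lamb2 (27.8), Nid1 (21.4), Col4a2 (11.8), Lamc1 (10.2), Lama4 (6.35), Col4a1 (3.35), Lamb1 (0.880) and Lama5 (0.427). There the ranges of Nid2 and Lamb2, of Nid1 and Col4a2 and of Col4a1 and Lamb1 did not overlap, and those of the other neighbours did.

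Of the 9 tested members 3 fell in vSSC, Col4a2, Lamc1 and Nid1, none rose and 6 did not pass. Of all genes tested 23.5% were called, 9.17% lower and 14.3% higher in vSSC. The share of calls that were higher was 60.9% as deposited, 49.5% with median-of-ratios scaling, 50% with quantile normalization and 42.4% with each library rescaled to one sum. The members' median difference was -0.48, with 8 of 9 below 0, and that of all tested genes was 0.08, with 41.4% below 0. The 3 that fell are also the 3 members whose groups did not overlap, all lower in vSSC, as were 9.99% of all tested genes. All 3 calls were lost when the ribosomal protein share of each library was a covariate (adjusted p = 0.645, 0.835 and 0.249 for Col4a2, Lamc1 and Nid1), and without both vSSC replicates 1 and 3 only that of Nid1 held.

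**Figure D2:**
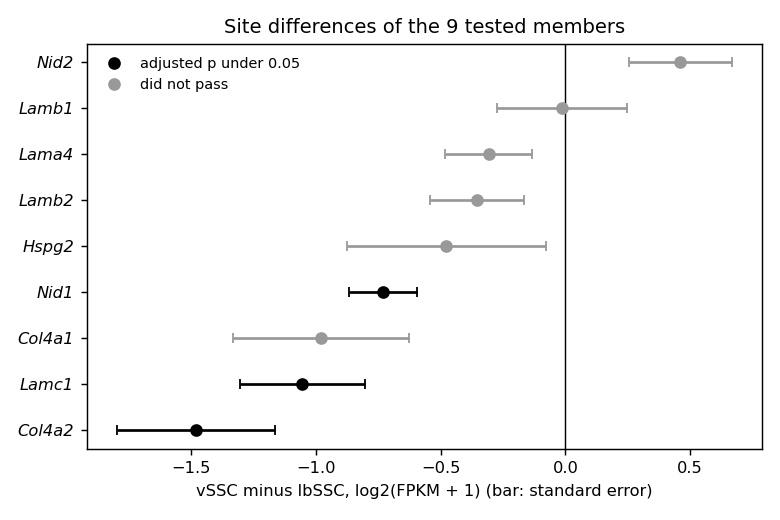
Site differences of the 9 tested members, lbSSC subtracted from vSSC on the log2(FPKM + 1) scale, with the standard error from limma. Black points passed an adjusted p of 0.05 and grey points did not; Col4a2, Lamc1 and Nid1 passed, all on the side of lower values in vSSC.

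Of the collagen IV chains, Col4a2 (ENSMUSG00000031503, chromosome 8, 11312805 to 11449287, plus strand, GRCm38) fell in vSSC. Its FPKM was 1.98, 4.75, 2.10 and 5.50 in vSSC replicates 1 to 4 and 7.71, 7.68, 13.3 and 18.3 in lbSSC replicates 1 to 4. Every lbSSC library lay above every vSSC library, and the female lbSSC libraries were the highest. The means were 3.58 ± 1.81 and 11.8 ± 5.12 FPKM (SD, n = 4), 3.28-fold higher in lbSSC, and the difference was -1.48 ± 0.31 (limma adjusted p = 0.00698). It was -1.35 ± 0.29 (adjusted p = 0.00706) with the trend on transcript length removed and -0.98 ± 0.30 (adjusted p = 0.0722) without both vSSC replicates 1 and 3.

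Col4a1 (ENSMUSG00000031502, chromosome 8, 11198423 to 11312826, minus strand), the partner chain, had FPKM of 0.222, 2.38, 0.882 and 1.21 in vSSC and 1.36, 2.08, 5.08 and 4.87 in lbSSC. The groups overlapped through vSSC replicate 2, which lay above lbSSC replicates 1 and 2. The means were 1.17 ± 0.903 and 3.35 ± 1.90 FPKM (SD, n = 4), and the difference of -0.98 ± 0.35 did not pass (limma adjusted p = 0.0646). It passed in 4 of 21 alternatives. It did so without vSSC replicate 2, the highest of vSSC (-1.22, adjusted p = 0.0351), and without lbSSC replicate 1, the lowest of lbSSC (-1.23, adjusted p = 0.0269). In the other fits without 1 library it did not pass, with adjusted p from 0.0653 (without lbSSC replicate 2) to 0.184 (without lbSSC replicate 4). With all 8 libraries it passed when sex was a covariate (-0.98, adjusted p = 0.0460) and with a replicate block (-0.98, adjusted p = 0.0203). Trimers of these chains hold more alpha 1 than alpha 2 chains. Col4a2 nevertheless had the higher FPKM in all 8 libraries, by 2.00- to 8.92-fold in vSSC and 2.62- to 5.66-fold in lbSSC. The log2 ratio of Col4a2 to Col4a1 was 1.90 ± 0.98 in vSSC and 1.92 ± 0.45 in lbSSC (exact two-sided permutation test, p = 0.971, adjusted over 4 ratios p = 0.971, smallest possible p = 0.0286). The sign of this small difference turned when vSSC replicate 2, vSSC replicate 3 or lbSSC replicate 1 was left out.

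Among laminins, Lamc1 (ENSMUSG00000026478, chromosome 1, 153218922 to 153332786, minus strand), the gamma chain of most laminins, fell in vSSC. It had FPKM of 3.80, 4.94, 2.63 and 6.17 in vSSC and 6.30, 8.61, 13.6 and 12.5 in lbSSC. The groups did not overlap, but the highest vSSC library, replicate 4, lay just under the lowest lbSSC library, replicate 1. The means were 4.38 ± 1.52 and 10.2 ± 3.38 FPKM (SD, n = 4), 2.34-fold higher in lbSSC, with a difference of -1.05 ± 0.25 (limma adjusted p = 0.0123). The difference was -0.89 ± 0.21 (adjusted p = 0.0114) with the length trend removed and -0.73 ± 0.26 (adjusted p = 0.111) without both vSSC replicates 1 and 3.

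Lamb2 (ENSMUSG00000052911, chromosome 9, 108479736 to 108490530, plus strand), a beta chain of neuromuscular, kidney and vascular laminins, was the most abundant laminin transcript at both sites. Its FPKM was 17.8, 27.4, 16.9 and 24.4 in vSSC and 25.1, 20.8, 30.2 and 35.2 in lbSSC. The groups overlapped, and the difference of -0.35 ± 0.19 did not pass (limma adjusted p = 0.189). Lamb1 (ENSMUSG00000002900, chromosome 12, 31265234 to 31329644, plus strand), the other beta chain among the members, had FPKM of 0.278, 1.75, 0.505 and 1.08 in vSSC and 0.620, 0.380, 1.27 and 1.25 in lbSSC. The means of 0.902 ± 0.656 and 0.880 ± 0.450 FPKM (SD, n = 4) were close, and the difference of -0.01 ± 0.26 did not pass (limma adjusted p = 0.976). Lamb2 made up 94.0% to 98.5% of the summed FPKM of Lamb1 and Lamb2 in vSSC and 96.0% to 98.2% in lbSSC. The log2 ratio of Lamb2 to Lamb1 was 4.88 ± 0.87 in vSSC and 5.13 ± 0.54 in lbSSC (exact two-sided permutation test, p = 0.629, adjusted over 4 ratios p = 0.838).

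Of the alpha chains among the members, Lama4 (ENSMUSG00000019846, chromosome 10, 38965515 to 39110188, plus strand), typical of endothelial, fat and muscle laminins, was the one with clear expression. It had FPKM of 4.14, 5.27, 4.20 and 5.96 in vSSC and 4.58, 6.03, 6.59 and 8.19 in lbSSC. The groups overlapped, and the difference of -0.31 ± 0.17 did not pass (limma adjusted p = 0.215). Lama5 (ENSMUSG00000015647, chromosome 2, 180176373 to 180225859, minus strand), the alpha chain of most mature epithelial and vascular basement membranes, was listed at 0 in vSSC replicates 1 and 3 and at 0.284 and 0.0513 FPKM in replicates 2 and 4. In lbSSC it was at 0.521, 0.161, 0.270 and 0.756 FPKM. It failed the filter on low values and has no site test. Lama5 as a percentage of Lama4 was 1.56 ± 2.59 in vSSC and 6.84 ± 4.13 in lbSSC, with overlapping groups (exact two-sided permutation test, p = 0.0857, adjusted over 4 ratios p = 0.171).

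The nidogens link the laminin and collagen IV networks, and Nid1 fell in vSSC while Nid2 did not pass. Nid1 (ENSMUSG00000005397, chromosome 13, 13437602 to 13512275, plus strand) had FPKM of 11.7, 14.0, 9.97 and 14.8 in vSSC and 20.5, 19.3, 23.0 and 22.9 in lbSSC. The groups were well separated, and the spread within each was the smallest, relative to its mean, of the members that fell. The means were 12.6 ± 2.19 and 21.4 ± 1.85 FPKM (SD, n = 4), 1.70-fold higher in lbSSC, with a difference of -0.73 ± 0.14 (limma adjusted p = 0.00333). It was -0.61 ± 0.11 (adjusted p = 0.00218) with the length trend removed and -0.54 ± 0.13 (adjusted p = 0.0288) without both vSSC replicates 1 and 3.

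Nid2 (ENSMUSG00000021806, chromosome 14, 19751257 to 19811787, plus strand) was the member with the highest mean FPKM in vSSC and the only tested member with a positive difference. Its FPKM was 69.2, 103.7, 56.5 and 119.5 in vSSC and 60.5, 53.5, 58.3 and 70.6 in lbSSC. Replicates 2 and 4 of vSSC lay above every lbSSC library, and replicates 1 and 3 lay within the lbSSC range. The means were 87.2 ± 29.3 and 60.7 ± 7.22 FPKM (SD, n = 4), and the difference of 0.46 ± 0.21 did not pass (limma adjusted p = 0.124). It passed in 5 of 22 alternatives. It did so without both vSSC replicates 1 and 3 (0.87 ± 0.14, adjusted p = 0.00399). Without vSSC replicate 3 alone it also passed (0.64, adjusted p = 0.0350). So it did with library weights (0.63, adjusted p = 0.0279) and with a replicate block (0.46, adjusted p = 0.0475). When the ribosomal protein share entered as a covariate it passed as well (1.10 ± 0.23, adjusted p = 0.0183). Each rescaling of the libraries gave a smaller difference that did not pass. It was 0.36 (adjusted p = 0.264) with median-of-ratios scaling and 0.25 (adjusted p = 0.491) with quantile normalization. Rescaling each library to one sum gave 0.31 (adjusted p = 0.355). Nid2 overlaps the gene Rtraf on the other strand, as Col4a1, Col4a2 and Nid1 overlap the antisense genes Gm15418, Gm15419 and Gm48682 and Lamc1 the pseudogene Gm8818. The libraries do not mark strand, so reads of these shared stretches cannot be told apart.

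A ratio of transcripts within a library does not depend on how libraries are scaled. Nid2 exceeded Nid1 by 5.91-, 7.40-, 5.67- and 8.09-fold in vSSC replicates 1 to 4 and by 2.95-, 2.78-, 2.53- and 3.09-fold in lbSSC replicates 1 to 4. Every vSSC library lay above every lbSSC library, including vSSC replicates 1 and 3. Nid2 made up 85.0% to 89.0% of the summed nidogen FPKM in vSSC and 71.7% to 75.5% in lbSSC. The log2 ratio was 2.74 ± 0.25 in vSSC against 1.50 ± 0.12 in lbSSC, which is 1.24 or 2.37-fold apart. The p was the smallest that 4 libraries against 4 allow (exact two-sided permutation test over 70 splits, p = 0.0286), and adjusted over the 4 ratios it did not pass (p = 0.114). A single ratio at that smallest p cannot pass this adjustment, so the failure to pass was set by the design. The site difference of Nid2 minus that of Nid1 was 1.19 in the limma fit and lay between 1.09 and 1.46 in its 22 alternatives.

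**Figure D3:**
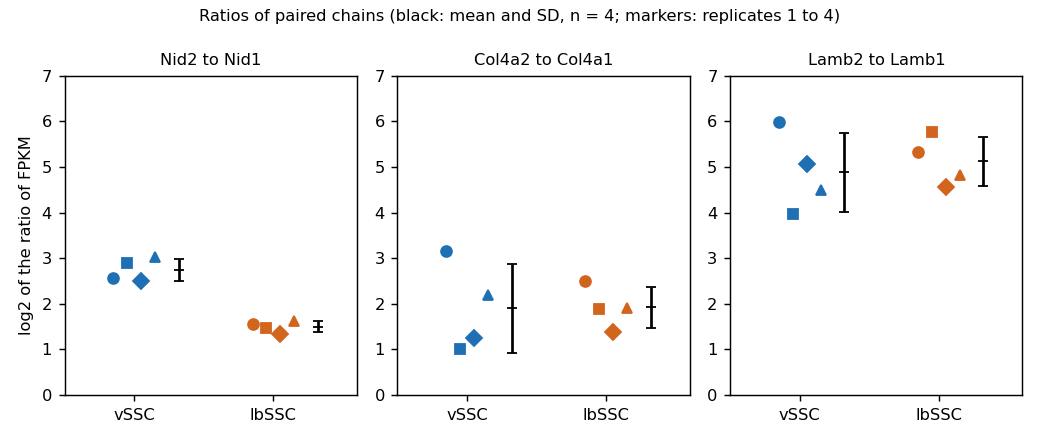
Log2 ratio of FPKM within each library for Nid2 to Nid1, Col4a2 to Col4a1 and Lamb2 to Lamb1, with 1 marker per library and the mean and SD of 4 libraries in black. The nidogen ratio of every vSSC library lies above that of every lbSSC library, and the other ratios overlap between the sites.

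Perlecan, Hspg2 (ENSMUSG00000028763, chromosome 4, 137468769 to 137570630, plus strand), a large proteoglycan that chondrocytes place around themselves, varied widely between libraries of one site. Its FPKM was 31.7, 61.4, 20.6 and 84.9 in vSSC and 48.2, 40.2, 64.4 and 106.7 in lbSSC. The groups overlapped over most of their range, with means of 49.7 ± 29.1 and 64.9 ± 29.6 FPKM (SD, n = 4) and a difference of -0.48 ± 0.40 that did not pass (limma adjusted p = 0.403). Without both vSSC replicates 1 and 3 the difference was 0.25 ± 0.32. Nid2 exceeded Hspg2 in 4 of 4 vSSC libraries, by 1.41- to 2.74-fold, and in replicates 1 and 2 of lbSSC, while Hspg2 was the higher in lbSSC replicates 3 and 4. The Hspg2 transcript, at 14187 nucleotides, is the longest of the members, and that of Nid2, at 4876, the shortest. The ratio was highest in vSSC replicate 3 (2.74) and lowest in lbSSC replicate 4 (0.66). Long transcripts had their lowest and highest median deviations there (-0.23 and 0.17). The site difference of Nid2 minus that of Hspg2 was 0.94 in the limma fit, and 0.05 with ribosomal protein share as covariate. The part of transcript length was not tested.

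Libraries within a site differed in the same direction across the members. Replicates 1 and 3 of vSSC were the lowest of the vSSC libraries in all 10 members, and in 19.9% of all tested genes. Replicates 3 and 4 of lbSSC were the highest lbSSC libraries in 8 of 10 members, the exceptions being Lama5 and Nid2, and in 15.9% of tested genes. The tested genes include short transcripts, and the shares among long transcripts alone were not taken. Long transcripts had their lowest median deviations of vSSC in replicates 1 and 3, and their highest of lbSSC in replicates 3 and 4. The summed FPKM of the 10 members was 140.8, 226.0, 114.3 and 263.5 in vSSC and 175.4, 158.7, 216.1 and 281.3 in lbSSC, so the sites overlapped in this sum. Nid2 made up 45.4% to 49.5% of it in vSSC and 25.1% to 34.5% in lbSSC.

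**Figure D4:**
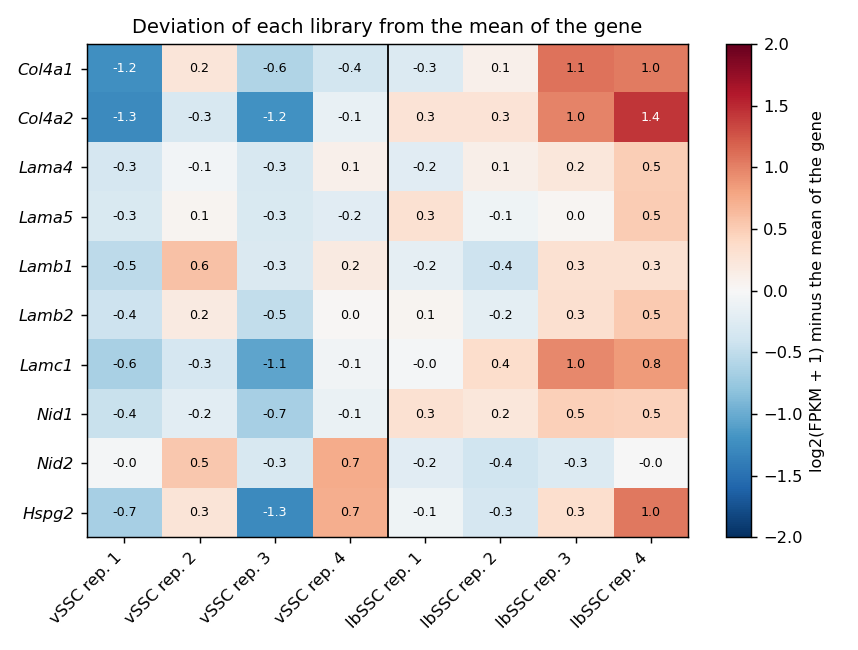
Deviation of each library from the mean of the gene over 8 libraries, on the log2(FPKM + 1) scale, with genes in rows and libraries in columns. Replicates 1 and 3 of vSSC are the lowest vSSC libraries in each row, and Nid2 is the row where vSSC replicates 2 and 4 exceed all lbSSC libraries.

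**Figure D5:**
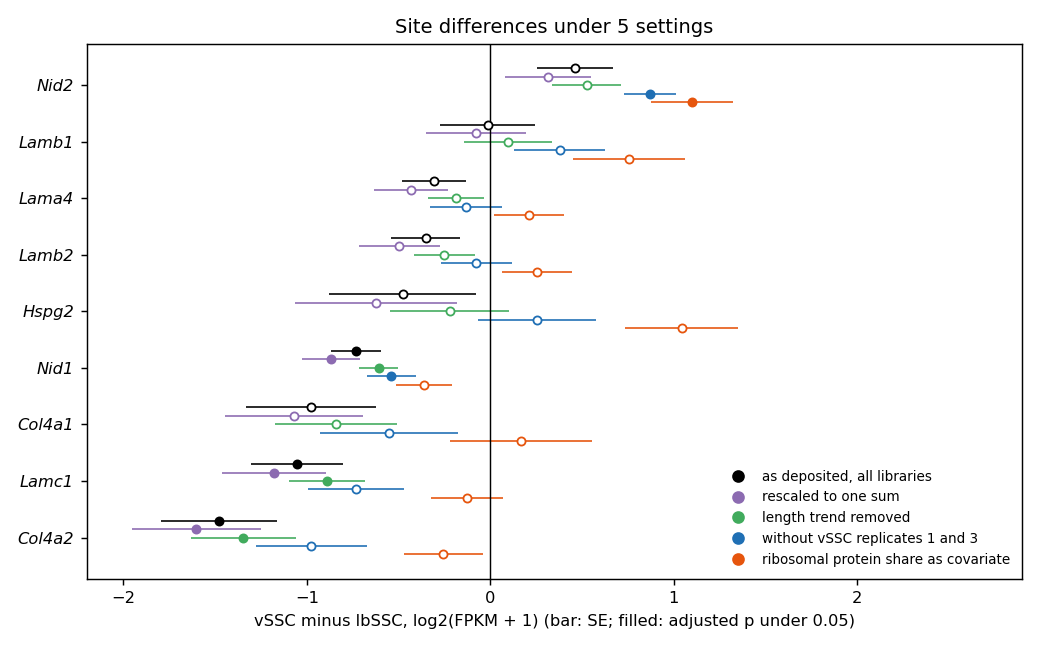
Site differences of the 9 tested members ± SE on the log2(FPKM + 1) scale under 5 settings, with filled points for an adjusted p under 0.05. With ribosomal protein share as covariate the 9 points lie furthest to the right and Nid2 alone passed. Without vSSC replicates 1 and 3, Nid1 (lower) and Nid2 (higher) passed. These replicates are the lowest vSSC libraries of every member, so leaving them out moves each point to the right.

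The plot of the 5 settings shows how far the members moved together. With ribosomal protein share as covariate the difference of Col4a2 was -0.26 ± 0.21, that of Lamc1 -0.13 ± 0.20 and that of Nid1 -0.36 ± 0.15, and Col4a1, Hspg2, Lama4, Lamb1 and Lamb2 had positive differences. The ranges of this covariate at the 2 sites overlap only between 18.0% and 18.1%, so it and the site can hardly be told apart, and 613 genes were then called in all. Rescaling each library to one sum, which moves the median of all genes by more than 0.1 to -0.04, gave -1.60 ± 0.35 for Col4a2, -1.18 ± 0.28 for Lamc1 and -0.87 ± 0.16 for Nid1. All 3 calls held under that scaling, median-of-ratios scaling and quantile normalization.

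The sex of the mice was tested as male minus female with site in the model. None of the 9 tested members differed (limma adjusted p from 0.639 to 0.935, none with an unadjusted p under 0.05), and 0.0466% of all tested genes were called. All 9 differences were below 0, as were 35.2% of those of all tested genes. The means by sex were further apart in lbSSC, with Col4a2 at 7.69 FPKM in male and 15.8 in female libraries and Hspg2 at 44.2 and 85.6, than in vSSC, with Col4a2 at 3.37 and 3.80 and Hspg2 at 46.6 and 52.8. The interaction of site and sex, which tests that contrast, is the male minus female difference in vSSC minus that in lbSSC. It was 0.82 ± 0.54 for Col4a2 and 0.97 ± 0.77 for Hspg2 (limma adjusted p = 0.981 for each). The largest was that of Col4a1, at 1.14 ± 0.57, and that of Lamc1 was 0.81 ± 0.43 (limma adjusted p = 0.981 for each). All 9 tested members were above 0, as were 41.8% of all tested genes. The interaction passed for 0% of all tested genes. Of these, 405 had an unadjusted p under 0.05, none of them a member. With 2 libraries per sex and site, lbSSC replicates 3 and 4 are the female libraries, and sex cannot be told apart from other features that these libraries share.

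Other basement membrane proteins were tested as a list. Of 24 listed genes 10 were tested, and 7 fell, none rose and 3 did not pass, with a median of -0.84. Among all tested genes 9.17% fell and 14.3% rose, with a median of 0.08. Smoc1 and Smoc2, secreted calcium-binding proteins related to Sparc, had the smallest p. Smoc1 had 7.79 ± 1.01 FPKM in vSSC and 45.7 ± 8.27 in lbSSC (-2.40 ± 0.15, limma adjusted p = 1.02e-06), and Smoc2 at 116.5 ± 21.9 and 309.6 ± 16.1 (-1.42 ± 0.13, limma adjusted p = 2.92e-05). The list went on with Npnt, the integrin ligand nephronectin (-1.23 ± 0.16), Ntn4, a netrin that binds laminin gamma chains (-1.12 ± 0.14), Col15a1, a basement membrane collagen (-0.99 ± 0.15), Agrn, agrin (-0.68 ± 0.15), and Tinagl1 (-0.62 ± 0.19). In these genes except Tinagl1 every vSSC library lay below every lbSSC library. Npnt, Ntn4, Smoc1, Smoc2 and Tinagl1 also passed with ribosomal protein share as covariate, and these with Col15a1 passed without both vSSC replicates 1 and 3. Lama2, the alpha chain of muscle and Schwann cell laminin, was at 1.83 ± 0.373 and 1.12 ± 0.410 FPKM and did not pass (0.43 ± 0.18, adjusted p = 0.109).

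Most receptors of basement membranes did not pass the site test. Of 18 listed genes 14 were tested, 3 rose, 2 fell and 9 did not pass, with a median of -0.08, where 14.3% of all tested genes were higher and 9.17% lower. These counts are near that background. The heparan sulfate proteoglycan Sdc1 had 32.9 ± 1.48 FPKM in vSSC and 75.0 ± 3.17 in lbSSC (-1.17 ± 0.09, limma adjusted p = 9.06e-06), and Gpc1 also fell (-0.56 ± 0.17). Another syndecan, Sdc4, rose from 396.0 ± 9.38 FPKM in lbSSC to 561.8 ± 58.8 in vSSC (0.50 ± 0.10, limma adjusted p = 0.00653), as did Cd151, a tetraspanin partner of laminin-binding integrins (0.44 ± 0.14), and Rpsa, a ribosomal protein also described as a laminin receptor (0.49 ± 0.14). Itgb1, the beta chain of most matrix-binding integrins, was at 133.2 ± 4.64 and 133.0 ± 15.7 FPKM (0.01 ± 0.11), and Itga6, a laminin-binding alpha chain, at 11.8 ± 2.00 and 12.1 ± 1.61 (-0.04 ± 0.14). With ribosomal protein share as covariate 1 rose (Sdc3) and 1 fell (Sdc1), and without both vSSC replicates 1 and 3 Sdc3 and Sdc4 rose and Sdc1 fell. Rpsa is itself among the genes summed in the ribosomal protein share, so its rise is not separate from that share.

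Among enzymes and chaperones that fold and crosslink collagen IV, and other collagens with it, most did not pass, and the 4 that did were higher in vSSC. All 13 listed genes were found, in 14 tested rows because Mia3 has 2, and 4 rose, none fell and 10 rows did not pass, with a median of 0.17, beside 14.3% higher and 9.17% lower among all tested genes and their median of 0.08. P4ha2, a prolyl hydroxylase subunit, had 174.3 ± 16.7 FPKM in vSSC and 90.0 ± 6.87 in lbSSC (0.94 ± 0.11, limma adjusted p = 0.000111), and Loxl2, a crosslinking oxidase, at 61.1 ± 7.66 and 35.0 ± 2.32 (0.78 ± 0.11, limma adjusted p = 0.000740). Plod2, a lysyl hydroxylase, was at 445.2 ± 9.36 and 285.2 ± 24.9 (0.64 ± 0.10), and P4hb also rose (0.36 ± 0.11). Loxl2, P4ha2 and Plod2 passed as well with ribosomal protein share as covariate and without both vSSC replicates 1 and 3. Pxdn, the peroxidase that forms the sulfilimine bonds of collagen IV, was at 5.07 ± 0.957 and 5.78 ± 1.41 FPKM and did not pass (-0.15 ± 0.18, adjusted p = 0.578).

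Of 12 enzymes and inhibitors that act on basement membranes 10 were tested, 6 fell, none rose and 4 did not pass, with a median of -0.50, where 9.17% of all tested genes fell and 14.3% rose. Sulf1, which removes sulfate groups from heparan sulfate, had the smallest p, at 2.16 ± 0.824 FPKM in vSSC and 7.92 ± 1.68 in lbSSC (-1.52 ± 0.21, limma adjusted p = 0.000447), followed by Timp3, a matrix-bound protease inhibitor, at 37.7 ± 3.47 and 62.0 ± 4.36 (-0.70 ± 0.11, limma adjusted p = 0.000834). The others that fell were Sulf2 (-0.71 ± 0.23), Mmp9 (-0.67 ± 0.22), Mmp14 (-0.53 ± 0.13) and Timp2 (-0.47 ± 0.11). Only Timp3 of this list passed with ribosomal protein share as covariate. Without both vSSC replicates 1 and 3, Sulf1 and Timp3 fell and Adamts1 rose.

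For each member that fell, the genes with the most similar pattern were sought over the 8 libraries after the mean of each site was subtracted, which leaves variation within sites. For Col4a2 these were Sdk2 (Pearson's r = 0.995, Spearman's rho = 0.905), Igsf10 (0.994 and 0.905) and Nfkb2 (0.993 and 0.929). For Lamc1 they were Polr2a (0.979 and 0.952), Nrk (0.978 and 0.929) and Qser1 (0.975 and 0.952). For Nid1 they were Cux1 (0.988 and 0.952), Slc38a2 (0.986 and 0.976) and Clstn3 (0.984 and 0.881). These are the highest correlations among all tested genes other than the members, over libraries that each carry one length profile for every gene, and no test is given. Of these genes Igsf10 (-2.72) and Clstn3 (-1.20) were lower in vSSC and Slc38a2 (0.41) was higher. The others did not pass the site test.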

How the data were processed

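SMART-Seq v4 cDNA of the sorted cells went into Nextera XT libraries, per the labels' protocols, a preparation that does not mark strand. The authors deposited FPKM per protein-coding gene, made with bcl2fastq 2.19, STAR 2.5.2 and Cufflinks 2.1.1 on GRCm38 per the submitters' processing notes. Their settings were not stated. FPKM depends on transcript length and on the library total, so abundant genes and coverage of long transcripts affect it. Coordinates add 1 to the deposited starts, which in 82.3% of identifiers matched then equal GENCODE M21, and transcript lengths are the longest coding transcript there.

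The 22053 rows hold 22007 identifiers, and rows sharing one were kept apart. Values were transformed to log2(FPKM + 1) and fitted with limma 3.58.1 in R 4.3.3 (empirical Bayes with a variance trend), tested on simulated data first. Site, sex (with site as covariate) and their interaction were tested. Ratios used exact permutation tests (scipy 1.17.1). Lama5 is listed at 0 in 2 libraries, so its ratio to Lama4 was taken as a percentage and not as a planned log2 ratio.

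Members, lists and markers were chosen with earlier results of these data known. Named are all members, list genes that passed or had the 2 smallest p, and the 3 genes most like each member that passed. Lama2, Col4a5, Itgb1, Itga6 and Pxdn were named after their values were seen. Alternatives were other pseudocounts (0.1, 0.01), filters (none, FPKM of 5) and scalings, no variance trend, library weights, covariates, a replicate block, length-trend removal (loess, span 0.5) and left-out libraries. Ratios and lists without both vSSC replicates 1 and 3, and lists under further settings, were added after the data were seen. One marker list is not reported here.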

Additional observations from a re-analysis of the deposited data

Results flagged for a closer look

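Lama5 as a percentage of Lama4 in vSSC replicate 2 was 5.396, far above replicates 1 and 3 at 0 and replicate 4 at 0.860. Its gap to the nearest library was 0.841 of the range of the 4 vSSC libraries, above Dixon's critical value for 4 libraries. In 28 groups of libraries examined this way, chance alone flags about 5% of groups.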

How the results depend on the processing

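The calls of Col4a2, Lamc1 and Nid1 held in each fit without 1 library and under each scaling, filter, pseudocount and weighting tried. Of 22 alternatives, Col4a2 and Lamc1 were called in 20 and Nid1 in 21. Between sites 613 genes were called with ribosomal protein share as covariate, 1095 without both vSSC replicates 1 and 3, and 1534 to 2991 when 1 library was left out, against 2518 in the fit of all libraries. Members called lower were 0 with the ribosomal protein share and 1 without both libraries, and 4, with Col4a1 in addition, with sex as a covariate, with the replicate block, without vSSC replicate 2 and without lbSSC replicate 1. Members called higher were 1 with library weights, the replicate block, the ribosomal protein share and without both libraries, and 0 to 1 without 1 library. The sex comparison called 3 genes with a filter at an FPKM of 5 and 13 with library weights, against 5.

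Some differences turned sign. With the ribosomal protein share the difference was 0.17 for Col4a1, 1.04 for Hspg2, 0.21 for Lama4, 0.25 for Lamb2 and 0.76 for Lamb1, and without both libraries 0.25 for Hspg2 and 0.38 for Lamb1. That of Lamb1 was 0.21 with quantile normalization, 0.0946 with the length trend removed, 0.20 with library weights and -0.21 to 0.16 without 1 library. Without 1 library, the difference in log2 ratio ranged from -0.45 to 0.27 for Col4a2 to Col4a1 and from -0.62 to 0.0592 for Lamb2 to Lamb1. The cause was not tested.

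The methods of the study were not given, so the main fit was planned without a replicate block. Same-numbered libraries of the sites had correlations of deviations of 0.257, -0.0878, -0.0639 and 0.435. The lbSSC library most like it had the same number for vSSC replicates 1 and 4 only, which does not settle whether the numbers pair the libraries. With the replicate block 3194 genes were called, with 4 members lower (Col4a1 adjusted p = 0.0203) and 1 higher (Nid2, adjusted p = 0.0475). Read depth is unknown, which limits Lama5, Lamb1 and Col4a1 most.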
